A study of Homo sapiens with 8 samples.

Results

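Epithelial and mesenchymal state was followed across the arrays through 10 genes: CDH1, EPCAM, CDH2, VIM, EMP3, ZEB1, ZEB2, SNAI1, SNAI2 and TWIST1. The list was given by name and makes up 10 of 22428 genes with a symbol on the array and 16955 genes tested. A probe was assigned through its transcript accession, and each gene was represented by its brightest probe over the 8 arrays. The cells were OVSAHO and KURAMOCHI, cell lines derived from serous ovarian carcinoma. Each line was cultured with simvastatin or with L-778123 (written L778123 in the labels), and each of the 4 groups had 2 arrays. Simvastatin blocks HMG-CoA reductase, the enzyme that commits carbon to the mevalonate pathway, whereas L-778123 blocks both farnesyl transferase and geranylgeranyl transferase, the enzymes that attach the lipids made in that pathway to proteins. The question of the drug comparison was which genes simvastatin regulates differently from an inhibitor of prenylation alone. Arrays of untreated or vehicle-treated cells were not analysed here, so which of the drugs moved a gene cannot be read from a drug difference. Concentrations and times were not given for the cultures on the arrays, and nothing said whether the arrays of a group came from separate cultures, so p-values measure only the spread between these arrays.

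Epithelial cells hold to their neighbours through E-cadherin, the product of CDH1, and carry EPCAM on their surface. In the passage towards a mesenchymal state, zinc finger and helix-loop-helix proteins encoded by SNAI1, SNAI2, ZEB1, ZEB2 and TWIST1 repress CDH1, while N-cadherin (CDH2) and the intermediate filament vimentin (VIM) are gained. Carcinoma cells often keep markers of both states, and serous ovarian carcinoma is known for such mixed forms. EMP3 encodes a small membrane protein with 4 spans, of the family of PMP22, and is often high in mesenchymal tumours.

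The stretch before the transcription start is printed for VIM and EMP3, the 2 measured members that differed at least 2-fold between the drugs in OVSAHO, and for ZEB1, whose stretch holds the letters that ZEB and SNAI proteins bind. The sequences are from RefSeq (GRCh38.p14) and cover the 250 bases before the outermost start of each gene, 5′ to 3′ on the strand of the gene, which is the plus strand in all 3 cases. The table of promoters matched 5 of the 10 genes, CDH2, VIM, ZEB1, ZEB2 and EMP3. Capitals mark CACCTG, the E-box core bound by ZEB and SNAI proteins, or GGGCGG, the GC box, each searched on both strands (as CAGGTG and CCGCCC), with no overlap between the matches. VIM lay at chr10:17227991-17228240, ZEB1 at chr10:31318167-31318416 and EMP3 at chr19:48325302-48325551.
VIM: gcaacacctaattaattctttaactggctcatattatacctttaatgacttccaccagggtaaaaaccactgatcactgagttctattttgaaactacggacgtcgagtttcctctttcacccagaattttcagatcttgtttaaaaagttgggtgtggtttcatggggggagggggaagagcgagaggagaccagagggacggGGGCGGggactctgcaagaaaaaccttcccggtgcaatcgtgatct
ZEB1: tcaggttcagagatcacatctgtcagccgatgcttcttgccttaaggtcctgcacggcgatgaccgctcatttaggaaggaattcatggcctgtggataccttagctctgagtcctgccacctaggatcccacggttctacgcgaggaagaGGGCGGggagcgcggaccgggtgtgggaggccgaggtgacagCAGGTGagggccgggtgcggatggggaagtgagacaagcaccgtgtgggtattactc
EMP3: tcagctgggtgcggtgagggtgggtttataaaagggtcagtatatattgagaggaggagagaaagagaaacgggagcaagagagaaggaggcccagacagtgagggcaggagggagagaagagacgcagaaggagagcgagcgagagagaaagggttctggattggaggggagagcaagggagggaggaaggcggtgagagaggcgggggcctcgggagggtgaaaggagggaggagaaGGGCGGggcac
The GC box was found before the outermost start of 4 of the 5 genes and in 42.6% of all 35116 windows of the same length. In EMP3 it began 11 bases before the start, in VIM 46 bases and in ZEB1 99 bases. The E-box core was found before the outermost start only in ZEB1 among these 5 genes, 57 bases before it, and in 17.5% of all windows. All windows include further starts of a gene, whereas the 5 genes were counted by the outermost start alone.

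All 8 markers of serous ovarian carcinoma (PAX8, WT1, MUC16, FOLR1, SOX17, MSLN, EMX2 and MECOM) were well above background on every array of both lines. Of 6 fibroblast markers, DCN, LUM and PDGFRA were not well above background on any array, THY1 was above it in both lines, and COL1A1 and COL3A1 were above it only in KURAMOCHI. The summed linear level of these 6 markers ranged from 0.360 to 0.815 in OVSAHO and from 17.8 to 21.7 in KURAMOCHI, in units of the 75th percentile of the array, and their part in the differences between lines was not tested. PTPRC and CD14 of 4 leukocyte markers with a probe, CDH5 and VWF of 4 endothelial markers and UPK3B of 4 mesothelial markers were also well above background on every array, whereas MS4A1, PECAM1, CALB2 and ITLN1 were so on none. The summed levels in OVSAHO and in KURAMOCHI were 0.459 to 0.529 and 0.588 to 0.656 for the leukocyte list, 0.224 to 0.893 and 0.605 to 0.825 for the endothelial list and 2.01 to 6.41 and 0.685 to 1.20 for the mesothelial list. Of these, VWF (log2 difference -3.30) and UPK3B (-1.58) were called lower with simvastatin in OVSAHO and LRRN4 (-1.96) in KURAMOCHI. In OVSAHO 1 of the 3 fibroblast markers tested was also called lower with simvastatin. Of the 8 serous markers 1 was called higher there and 1 lower. The part of all these markers in the drug differences was not tested. Between 51.8% and 57.5% of the probes were well above background on an array. Arrays of a group correlated at 0.995 to 0.996 over the tested probes, drugs within OVSAHO at 0.973 to 0.974 and drugs within KURAMOCHI at 0.983 to 0.984. All arrays lay on 1 slide, each line in its own row and each drug in its own positions, so position and group cannot be told apart.

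Levels below are log2 signals relative to the 75th percentile of the same array, so a step of 1 is a 2-fold difference, and the level of a gene is not set against that of another gene because their probes differ. Of the members, 8 were well above background on all 8 arrays. ZEB2 and SNAI2 were well above background on all 4 KURAMOCHI arrays and on no OVSAHO array, and entered the test only through KURAMOCHI.

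**Figure D1:**
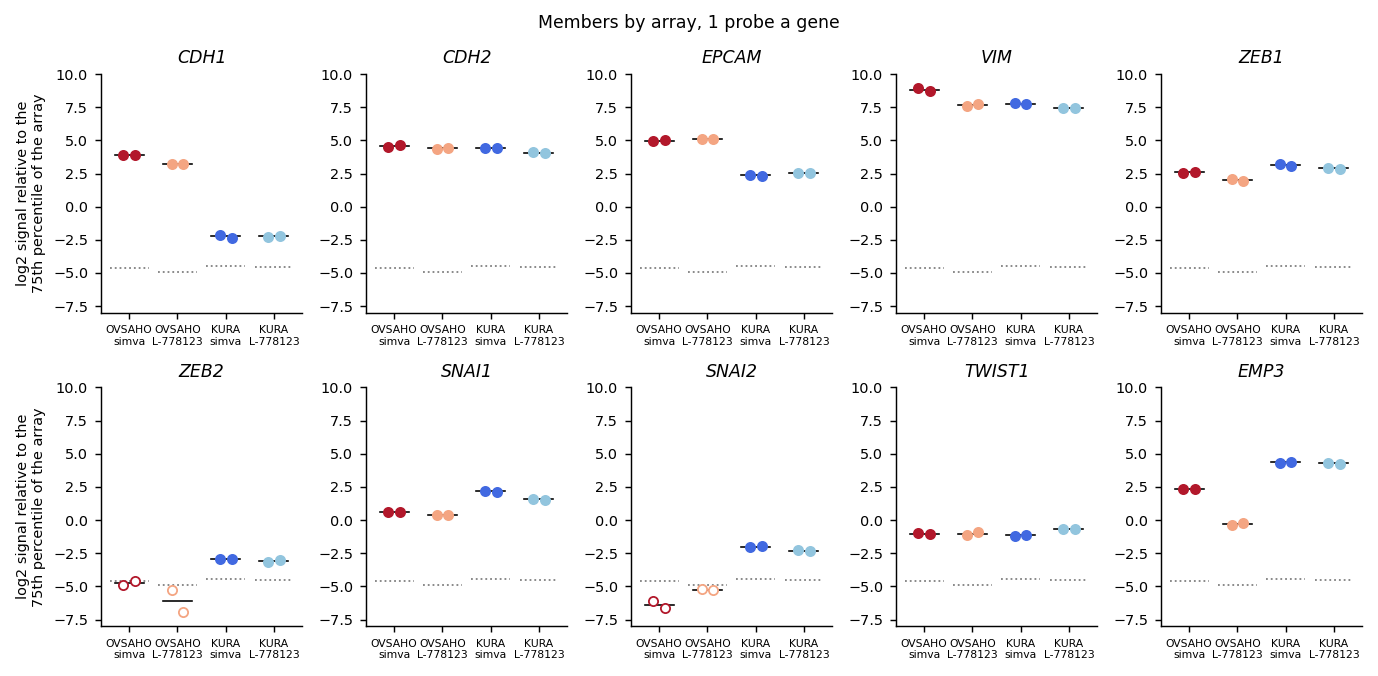
Level of each member on each of the 8 arrays, as log2 signal relative to the 75th percentile of the array, with 1 probe a gene. Points are arrays, short lines group means, open points signals not well above background and dotted lines the lowest signal well above background. CDH1 and EPCAM stood higher in OVSAHO, while SNAI1, SNAI2, ZEB2 and EMP3 stood higher in KURAMOCHI, and the OVSAHO groups of EMP3 were far apart.

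The lines differed most in CDH1. In OVSAHO, CDH1 was at 3.91 and 3.89 with simvastatin and at 3.19 and 3.19 with L-778123. In KURAMOCHI it was at -2.11 and -2.37 with simvastatin and at -2.25 and -2.21 with L-778123. All OVSAHO arrays thus lay far above all KURAMOCHI arrays, and KURAMOCHI still gave a signal well above background. Averaged over both drugs, CDH1 was 54.9-fold higher in OVSAHO (log2 difference 5.78, SE 0.066, limma adjusted p = 8.03e-08), and only 0.978% of the 33753 tested probes differed more in size. The order of the groups was OVSAHO with simvastatin, OVSAHO with L-778123, and then both KURAMOCHI groups, whose arrays overlapped.

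EPCAM, an adhesion protein of simple epithelia, followed the same order of lines. It was at 4.94 and 5.003 with simvastatin and at 5.10 and 5.12 with L-778123 in OVSAHO. In KURAMOCHI it was at 2.41 and 2.30 with simvastatin and at 2.55 and 2.51 with L-778123. EPCAM was 6.07-fold higher in OVSAHO (log2 difference 2.60, SE 0.045, limma adjusted p = 2.06e-07), and the lines did not overlap. As with CDH1, the probe was well above background in the lower line too.

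The mesenchymal structural genes were not simply the reverse. VIM was at 8.92 and 8.69 in OVSAHO with simvastatin, at 7.61 and 7.73 in OVSAHO with L-778123, at 7.83 and 7.72 in KURAMOCHI with simvastatin and at 7.43 and 7.43 in KURAMOCHI with L-778123. It was thus high in both lines, and OVSAHO with L-778123 overlapped KURAMOCHI with simvastatin. Averaged over the drugs, VIM was 1.56-fold higher in OVSAHO (log2 difference 0.64, SE 0.068, limma adjusted p = 0.000246). This difference was 1.03 on the log2 scale between the simvastatin groups and 0.24 between the L-778123 groups.

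CDH2 was nearly level between the lines. It was at 4.50 and 4.63 in OVSAHO with simvastatin, at 4.35 and 4.42 in OVSAHO with L-778123, at 4.44 and 4.42 in KURAMOCHI with simvastatin and at 4.11 and 4.03 in KURAMOCHI with L-778123. The KURAMOCHI arrays with L-778123 were the lowest, and OVSAHO with L-778123 overlapped KURAMOCHI with simvastatin. The average difference was 1.17-fold in favour of OVSAHO (log2 difference 0.23, SE 0.050, limma adjusted p = 0.00686), and a second CDH2 probe gave a log2 difference of 0.43 (adjusted p = 0.00028).

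EMP3, unlike VIM and CDH2, was higher in KURAMOCHI. It was at 2.33 and 2.37 in OVSAHO with simvastatin and at -0.37 and -0.25 in OVSAHO with L-778123. In KURAMOCHI it was at 4.33 and 4.40 with simvastatin and at 4.30 and 4.26 with L-778123. All KURAMOCHI arrays lay above all OVSAHO arrays, and within KURAMOCHI the nearest arrays of the drugs were less far apart than arrays of the same drug. EMP3 was 9.87-fold higher in KURAMOCHI averaged over the drugs (log2 OVSAHO minus KURAMOCHI -3.30, SE 0.047, limma adjusted p = 1.26e-07). The gap was 4.05-fold between the simvastatin groups and 24.1-fold between the L-778123 groups.

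Of the transcription factors, SNAI1, which represses CDH1 directly, was at 0.60 and 0.63 in OVSAHO with simvastatin, at 0.37 and 0.37 in OVSAHO with L-778123, at 2.17 and 2.15 in KURAMOCHI with simvastatin and at 1.59 and 1.51 in KURAMOCHI with L-778123. The 4 groups kept apart, with both KURAMOCHI groups on top. SNAI1 was 2.57-fold lower in OVSAHO (log2 difference -1.36, SE 0.039, limma adjusted p = 9.89e-07).

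SNAI2, the related repressor Slug, was at -2.03 and -1.99 in KURAMOCHI with simvastatin and at -2.28 and -2.32 with L-778123. On the OVSAHO arrays its signals of -6.14, -6.62, -5.19 and -5.29 were not well above background and have no order. SNAI2 was therefore at least 6.09-fold lower in OVSAHO. This bound sets the mean of the bright line against, per array, the higher of the lowest signal well above background and the signal of the probe itself. The limma adjusted p of 1.13e-06 was fitted to those dim signals and is no test of the bound.

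ZEB2, which represses CDH1 through its E-boxes, was at -2.90 and -2.90 in KURAMOCHI with simvastatin and at -3.14 and -3.03 with L-778123. The OVSAHO signals of -4.89, -4.56, -5.27 and -6.95 were again not well above background, so ZEB2 was at least 3.38-fold lower in OVSAHO (limma adjusted p = 0.00116, from the dim signals and likewise no test of the bound). The fitted size of these differences depended on the treatment of dim signals, and normexp background correction, whose offset raises them, gave -0.58 for ZEB2 and -1.19 for SNAI2. A probe for a non-coding ZEB2 transcript was well above background on 3 of the KURAMOCHI arrays and on no OVSAHO array, with a bound of only 1.74-fold. Another probe for the same coding transcript as the brightest was well above background on only 1 KURAMOCHI array and did not enter the test. The bound of 3.38-fold thus rests on the brightest probe.

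ZEB1, the paralogue of ZEB2, was measured in both lines. It was at 2.54 and 2.62 in OVSAHO with simvastatin, at 2.06 and 1.97 in OVSAHO with L-778123, at 3.18 and 3.08 in KURAMOCHI with simvastatin and at 2.93 and 2.83 in KURAMOCHI with L-778123. The groups did not overlap, and OVSAHO with L-778123 was the lowest. ZEB1 was 1.63-fold lower in OVSAHO (log2 difference -0.71, SE 0.052, limma adjusted p = 4.36e-05), with -0.77 (adjusted p = 0.000639) by a second probe.

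TWIST1, a helix-loop-helix factor of the mesoderm, did not separate the lines. It was at -0.96 and -1.08 in OVSAHO with simvastatin, at -1.15 and -0.92 in OVSAHO with L-778123, at -1.17 and -1.13 in KURAMOCHI with simvastatin and at -0.67 and -0.64 in KURAMOCHI with L-778123. Only the last group stood apart. The difference between lines did not pass the test (log2 difference -0.13, 95% interval -0.29 to 0.03, limma adjusted p = 0.115), but passed it without the second OVSAHO array with L-778123 (-0.18, adjusted p = 0.0256). A second TWIST1 probe was not well above background on any array.

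The threshold for a call was an adjusted p under 0.05 and a difference of at least 2-fold. Of the 8 members measured in both lines, CDH1 and EPCAM were called higher in OVSAHO, where 17.6% of all tested probes and 13.7% of the 28653 probes measured in both lines were called in that direction. SNAI1 and EMP3 were called lower, against 16.1% and 13.3% of probes. At the adjusted p alone, 4 of the 8 passed as higher in OVSAHO, against 40.2% of all tested probes and 38.9% of those measured in both lines, and 3 as lower, against 37.4% and 38.0%. ZEB2 and SNAI2 also passed both thresholds as lower, but they had entered the test only through the line in which they were high and are left out of these counts.

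**Figure D2:**
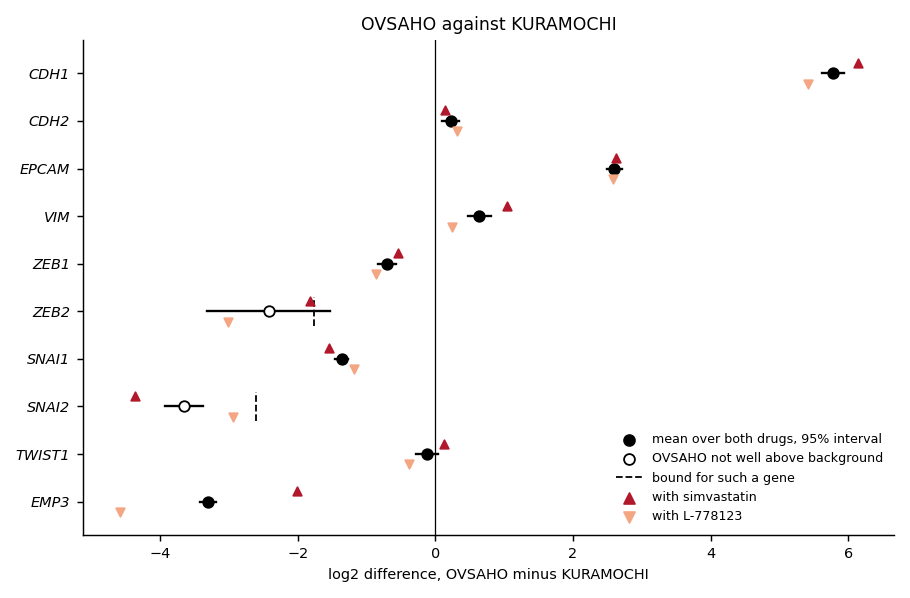
Log2 difference of each member between OVSAHO and KURAMOCHI, with the 95% interval of the mean over both drugs. Triangles give the difference within each drug. Open circles are ZEB2 and SNAI2, not well above background in OVSAHO, whose bounds of 3.38-fold and 6.09-fold are dashed. CDH1 at 5.78 lay farthest to the right. The triangles of EMP3 lay farther apart than those of any other member.

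In OVSAHO, simvastatin left EMP3, VIM, ZEB1 and SNAI1 higher than L-778123 did, and CDH1, an epithelial gene, differed in the same direction. EPCAM, the other epithelial member, had a difference of the opposite sign that did not pass the test. With the 2-fold threshold VIM and EMP3 were called among the 8 members measured in this line, both higher with simvastatin. Of all tested probes, also those that entered only through KURAMOCHI, 4.78% were called higher and 6.19% lower. The call of EMP3 is not independent evidence, because the study had listed this gene from the same contrast. At the adjusted p alone EMP3, VIM, CDH1, ZEB1 and SNAI1 passed, all higher with simvastatin, where 23.0% of probes passed as higher and 25.1% as lower.

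EMP3 showed the largest difference of these. Its levels above correspond to 6.31-fold more with simvastatin (log2 difference 2.66, SE 0.066, limma adjusted p = 1.92e-05), and 0.993% of probes differed more in size. EMP3 was among the genes that the study listed from this contrast beside the comparison of the simvastatin groups of both lines, so its values in these contrasts are not independent evidence. VIM was 2.20-fold higher with simvastatin (log2 difference 1.14, SE 0.096, limma adjusted p = 0.000412), and both arrays lay above both L-778123 arrays.

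CDH1 was 1.63-fold higher with simvastatin (log2 difference 0.71, SE 0.093, limma adjusted p = 0.00203), although OVSAHO already had the higher level. ZEB1, a repressor of CDH1, was 1.49-fold higher at the same time (log2 difference 0.57, SE 0.073, limma adjusted p = 0.00185). A second ZEB1 probe gave a log2 difference of 1.05 (adjusted p = 0.00221). SNAI1 was 1.19-fold higher (log2 difference 0.25, SE 0.056, limma adjusted p = 0.0141). This last call was lost without the second simvastatin array (adjusted p = 0.065), without the second L-778123 array (0.0504) and without a filter on dim probes (0.0699).

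EPCAM, CDH2 and TWIST1 did not pass the test in OVSAHO. EPCAM had a log2 difference of -0.14 (95% interval -0.30 to 0.01, limma adjusted p = 0.115) and passed with normexp background correction (-0.21, adjusted p = 0.0144). CDH2 had one of 0.18 (95% interval 0.00 to 0.35, adjusted p = 0.0888), which quantile normalization carried past the threshold (adjusted p = 0.041), as did the authors' table (0.0435), and its second probe gave 0.00. TWIST1 had one of 0.02 (95% interval -0.21 to 0.24, adjusted p = 0.889). For ZEB2 and SNAI2 no fold is given, because neither drug left a signal well above background. The fitted difference of SNAI2 (-1.14, adjusted p = 0.0023) came from such signals and became 0.32 (adjusted p = 0.0907) once dim signals were set to the floor of the array.

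**Figure D3:**
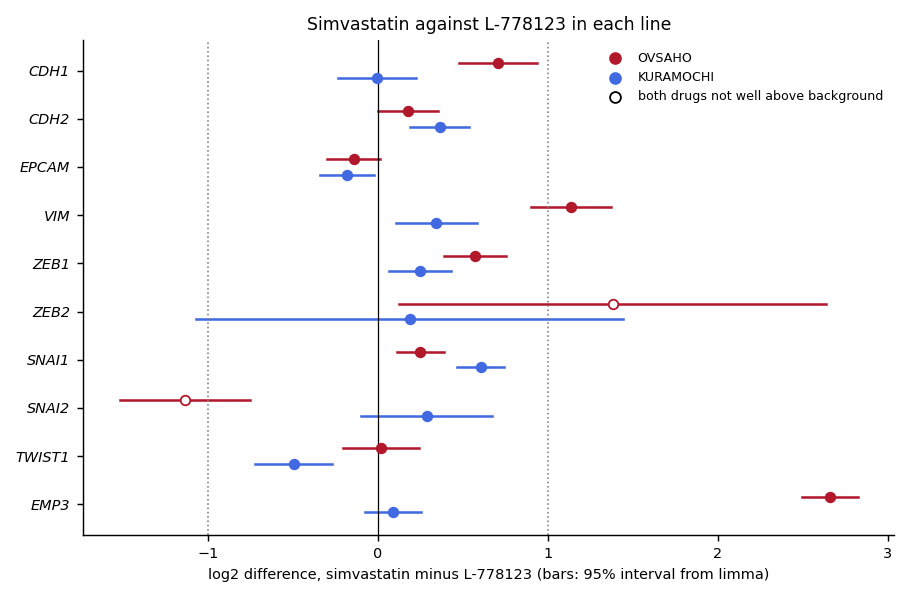
Log2 difference of each member between simvastatin and L-778123, in OVSAHO (red) and KURAMOCHI (blue), with 95% intervals from limma. Dotted lines mark a 2-fold difference, and open circles are ZEB2 and SNAI2 in OVSAHO, not well above background with either drug. EMP3 and VIM in OVSAHO are the filled points beyond the line at 1.

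In KURAMOCHI the fitted drug differences of EMP3, VIM, CDH1 and ZEB1 were smaller than in OVSAHO. Those of SNAI1, TWIST1, CDH2 and EPCAM were larger in size. No member was called at the 2-fold threshold by limma, which called 2.05% of all tested probes higher and 3.54% lower. Tukey's test called no member either, and 1112 probes in all. By limma 6 members had an unadjusted p under 0.05, against 43.5% of probes. At the adjusted p alone SNAI1, CDH2 and VIM were higher with simvastatin and TWIST1 was lower, where 14.1% of probes passed as higher and 17.3% as lower.

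SNAI1 had the largest of these differences, 1.52-fold higher with simvastatin (log2 difference 0.61, SE 0.056, limma adjusted p = 0.00123). It passed under every alternative tried. TWIST1 was 1.41-fold lower with simvastatin (log2 difference -0.50, SE 0.091, limma adjusted p = 0.0113). The call was lost without the first simvastatin array (adjusted p = 0.0596) and without the second L-778123 array (0.056).

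CDH2 was 1.29-fold higher with simvastatin by its brightest probe (log2 difference 0.36, SE 0.071, limma adjusted p = 0.0139). The second probe gave 0.08 (adjusted p = 0.406), and the call was lost without either simvastatin array (adjusted p = 0.0682 and 0.0563) or the second L-778123 array (0.0709). VIM was 1.27-fold higher with simvastatin (log2 difference 0.34, SE 0.096, limma adjusted p = 0.0425). This call was lost when any KURAMOCHI array or either OVSAHO array with L-778123 was left out (adjusted p up to 0.171). Without a filter on dim probes the calls of CDH2 (adjusted p = 0.0574) and VIM (0.12) were lost too, as were those of CDH2 (0.0768), VIM (0.245) and TWIST1 (0.0949) with Tukey's test.

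The other members did not pass the test in KURAMOCHI. CDH1 had a log2 difference of -0.01 (95% interval -0.24 to 0.22, limma adjusted p = 0.965) and EMP3 one of 0.09 (95% interval -0.08 to 0.25, adjusted p = 0.356). EPCAM had one of -0.18 (95% interval -0.34 to -0.02, adjusted p = 0.0831), which also passed with normexp (-0.24, adjusted p = 0.0129). ZEB1 had one of 0.25 (95% interval 0.07 to 0.43, adjusted p = 0.0503), which passed under 7 of 11 other settings, and its second probe passed (0.55, adjusted p = 0.0331). SNAI2 had one of 0.29 (adjusted p = 0.215). ZEB2 had one of 0.19 with a wide interval of -1.07 to 1.44 (adjusted p = 0.807). The spread was estimated over all 4 groups, and the dim OVSAHO signals of SNAI2 and ZEB2 widen it. SNAI2 passed when KURAMOCHI was fitted alone (adjusted p = 0.0452) and when either OVSAHO array with simvastatin was left out (0.0355).

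Whether the lines differed in their response was tested directly, as the drug difference in OVSAHO minus that in KURAMOCHI. EMP3 gave the clearest difference among the members, 2.57 on the log2 scale (SE 0.093, limma adjusted p = 0.000232). It was the only member measured in all groups that was called at the 2-fold threshold. Of all tested probes, also those not measured in both lines, 3.86% were called positive and 3.25% negative. The study had listed EMP3 from contrasts that enter this test, so its call is not independent evidence. At the adjusted p alone CDH1 (0.71, SE 0.132, adjusted p = 0.0159), VIM (0.79, SE 0.136, adjusted p = 0.0125) and TWIST1 (0.51, SE 0.128, adjusted p = 0.039) were also positive and SNAI1 (-0.36, SE 0.079, adjusted p = 0.0269) was negative, where 11.2% of probes passed as positive and 11.7% as negative. SNAI1 was higher with simvastatin in both lines, by more in KURAMOCHI, and TWIST1 passed the drug test only in KURAMOCHI, where it was lower with simvastatin.

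The test of VIM passed with any single array left out (adjusted p at most 0.0441). That of CDH1 was lost without the first OVSAHO array of either drug (simvastatin 0.0527, L-778123 0.0502) or the second KURAMOCHI array with L-778123 (0.053). SNAI1 passed in 1 of the 8 fits that left an array out, without the first KURAMOCHI array with L-778123, and its adjusted p otherwise reached 0.084. TWIST1 likewise passed in 1 of these 8 fits, without the second OVSAHO array with L-778123, and its adjusted p otherwise reached 0.108. Without a filter on dim probes CDH1 (adjusted p = 0.0548), SNAI1 (0.122) and TWIST1 (0.117) did not pass, nor did TWIST1 with Tukey's test (0.0694). The difference of responses did not pass for EPCAM (0.04, 95% interval -0.19 to 0.26, adjusted p = 0.802), CDH2 (-0.19, adjusted p = 0.237) or ZEB1 (0.32, adjusted p = 0.079), though ZEB1 passed as the median of its probes (0.41, adjusted p = 0.0442). For SNAI2 (-1.42, adjusted p = 0.00908) and ZEB2 (1.19, adjusted p = 0.288) it rested on OVSAHO signals not well above background.

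The members were also set beside wider lists of genes for the same states (25 junction genes, 20 surface and trafficking genes, 16 epithelial regulators, 32 matrix and surface genes, 18 mesenchymal regulators, 11 filament genes and 7 relatives of EMP3, members left out). Counts and medians between the lines are given over genes measured in both lines, beside the 13.7% of such probes called higher in OVSAHO, the 13.3% called lower and their median of 0.01. Measured means that each line had a group whose arrays were both well above background. Genes that missed this in one of the lines entered the test only through the other line and are outside these counts, and those of them with a fold below have it as a bound. Of 22 junction genes measured in both lines, 6 were called higher in OVSAHO and 1 lower, with a median log2 difference of 0.34. PKP3, a plaque protein of desmosomes, was not well above background in KURAMOCHI and was at least 24.9-fold higher in OVSAHO. TJP3, a scaffold of tight junctions, was 7.80-fold higher (log2 difference 2.96, adjusted p = 1.61e-07), and MARVELD2, which seals tricellular junctions, was 4.01-fold higher. CDH3, or P-cadherin, ran the other way and was 8.79-fold lower in OVSAHO (log2 difference -3.14, adjusted p = 2.89e-07).

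Of 16 epithelial surface and trafficking genes, 7 were called higher in OVSAHO and 1 lower (median 0.87). FXYD3, a regulator of the sodium pump, was at least 27.8-fold higher in OVSAHO and not well above background in KURAMOCHI. AP1M2, an adaptor subunit for basolateral sorting, was 4.01-fold higher, and EPN3, an epsin of endocytosis, was 12.04-fold lower. Of 9 epithelial regulators, 4 were called higher and 1 lower (median 0.90). FOXA1, a pioneer factor, was at least 10.3-fold higher in OVSAHO and not well above background in KURAMOCHI, ELF3 was 8.86-fold higher and KLF5 was 3.75-fold lower.

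Of 15 mesenchymal matrix and surface genes measured in both lines, 8 were called lower in OVSAHO and none higher by limma (median -1.20), while 13 were lower and 2 higher, NCAM1 and LOXL2, at the adjusted p alone, against 38.0% and 38.9% of probes. FN1, COL1A1, COL3A1 and MMP14 entered the test only through KURAMOCHI and LOX only through OVSAHO. COL3A1, a fibrillar collagen, was at least 68.9-fold lower, COL6A1 was 82.7-fold lower (log2 difference -6.37, adjusted p = 4.22e-08) and SPARC, a collagen-binding matrix protein, was 79.2-fold lower. LOX, an enzyme that cross-links collagen, was at least 3.58-fold higher in OVSAHO. Of 10 mesenchymal regulators, 3 were called higher and 3 lower (median 0.20). GSC and KLF8, which entered the test only through OVSAHO, were at least 6.93-fold and 3.87-fold higher there, ETS1 entered only through KURAMOCHI, and LEF1, a partner of beta-catenin, was 21.4-fold lower.

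The relatives of VIM and EMP3 were tested as families. Of 8 intermediate filament genes outside the keratins, 3 were called higher in OVSAHO and 2 lower (median -0.17). PRPH, the filament peripherin of peripheral neurons, was 10.5-fold higher, INA 7.13-fold higher and NES 2.33-fold lower. Of 6 genes related to EMP3, EMP1 was called, 2.92-fold lower in OVSAHO (log2 difference -1.55, adjusted p = 6.63e-07). All 6 were lower at the adjusted p alone, with a median of -0.64, against 38.0% of probes measured in both lines.

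**Figure D4:**
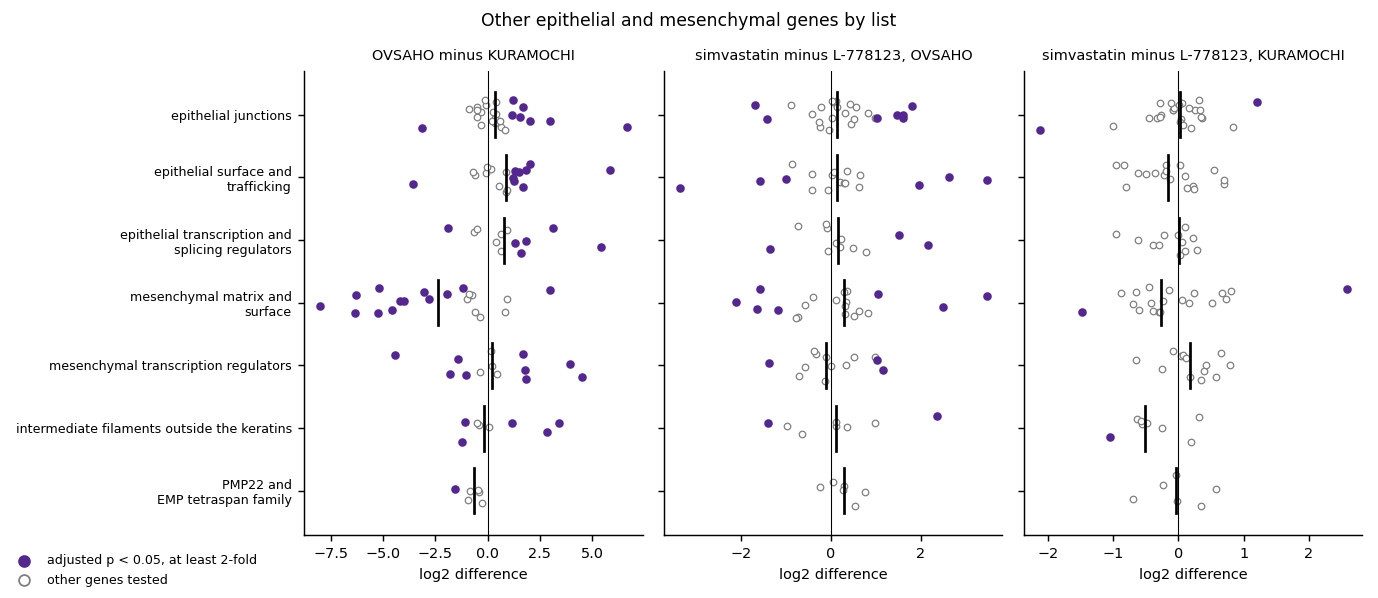
Log2 differences of the tested genes of 7 lists, between the lines (left) and between the drugs in OVSAHO (middle) and in KURAMOCHI (right). Points are genes, filled where called at an adjusted p under 0.05 and at least 2-fold, and bars are medians over the tested genes of a list, those that entered through 1 line included. The 20 matrix and surface genes tested had a median of -2.37 between the lines, and no list median passed 0.52 in size between the drugs.

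Between the drugs in OVSAHO, the lists held differences in both directions. Over all tested probes 4.78% were called higher with simvastatin and 6.19% lower, with a median of 0.01. Of 25 junction genes 5 were called higher and 2 lower (median 0.14). CDH3 was 3.46-fold higher (log2 difference 1.79, adjusted p = 7.36e-05), DSC2, a desmosomal cadherin, 3.04-fold and CLDN4, a claudin, 3.01-fold higher. CGN, a tight junction plaque protein, was 3.23-fold lower and CLDN1 2.70-fold lower. Of 18 surface and trafficking genes 3 were called higher and 3 lower (median 0.13). S100A14 was 11.1-fold higher (log2 difference 3.47, adjusted p = 1.28e-05), FXYD3 6.12-fold and MUC1 3.85-fold higher, whereas EPN3 was 10.3-fold, AP1M2 2.97-fold and MAL2 2.01-fold lower.

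Of 12 epithelial regulators, ELF3 (4.48-fold) and TFAP2C (2.84-fold) were called higher with simvastatin in OVSAHO and EHF (2.58-fold) lower. Of 20 matrix and surface genes 3 were called higher and 4 lower (median 0.29). The 20 genes and their median include FN1, COL1A1, COL3A1 and MMP14, which entered the test only through KURAMOCHI. CD44, the hyaluronan receptor, was 11.04-fold higher (log2 difference 3.47, adjusted p = 2.01e-05), MGP 5.59-fold and COL6A2 2.05-fold higher. MGP, like EMP3, was on the list the study took from this contrast. TNC was 4.34-fold, NT5E 3.14-fold and SPARC 2.98-fold lower. Of 13 mesenchymal regulators KLF8 (2.01-fold) was higher and HMGA2 (2.60-fold) lower, and ETS1, also past the threshold, was not well above background with either drug. PRPH was 5.14-fold higher and LMNB2 2.63-fold lower among the 8 filament genes. None of the 6 relatives of EMP3 was called by limma at the 2-fold threshold, while 4 were higher and 1 lower at the adjusted p alone (median 0.28), where 23.0% and 25.1% of probes passed.

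In KURAMOCHI, where 2.05% of all tested probes were called higher with simvastatin and 3.54% lower, at most 1 gene of a list was called in each direction. CLDN4 was 2.30-fold higher with simvastatin and CGN 4.37-fold lower, among 25 junction genes (median 0.02). MGP was 6.01-fold higher and TNC 2.77-fold lower, among 20 matrix and surface genes (median -0.26). NES was 2.07-fold lower, among 8 filament genes (median -0.52). The lists of epithelial surface genes, epithelial regulators, mesenchymal regulators and relatives of EMP3 held no gene called by limma there. At the adjusted p alone 3 of 18, 0 of 12, 3 of 13 and 2 of 6 of their genes passed as higher, against 14.1% of all tested probes. As lower 6, 2, 1 and 2 passed, against 17.3% of probes. The 6 lower surface genes include FXYD3, which was not well above background in KURAMOCHI with either drug. The list sizes and medians there also cover other such genes, among them PKP3 and LOX.

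Across the 8 arrays, the genes with the pattern most like that of a member were sought among 14491 genes well above background on every array. For CDH1 these were SNORD58C (Pearson r = 0.9996), MRPL43 (0.9995) and ABHD5 (0.9995). For EPCAM they were KATNAL2 (0.9998), NDUFS4 (0.9997) and DDX49 (0.9997). For EMP3 they were LIMS3-LOC440895 (0.9996), TGFB2 (0.9988) and BTG2 (0.9982). For VIM they were RUBCN (0.993), MUC1 (0.991) and KLC4 (0.991). The 8 arrays are 4 groups of 2 lines and share that structure, and 2166 genes reached an r over 0.95 with CDH1, 500 with EMP3, 237 with VIM, 61 with CDH2 and 0 with TWIST1, so these likenesses are descriptions. Among the members, CDH1 and EPCAM had an r of 0.991 over the 8 arrays, ZEB1 and EMP3 one of 0.974, and VIM and EMP3 one of -0.14.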

How the data were processed

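Total RNA of the 2 lines was labelled with Cy3 and hybridised to 8 Agilent SurePrint G3 arrays with 1 colour. The deposited intensity of a spot is the processed signal of Agilent Feature Extraction 11.5.1.1 (per the file headers and the submitters' processing notes), corrected for background within the array only. Deposited flags, other values, mark spots well above background, saturated or outlying. No spot was saturated. The authors' table of linear intensity values (column medians 26.4 to 26.5), whose sorted values nearly coincided between arrays, served as an alternative. The study's methods name the 75th percentile.

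Control spots and outliers (58 to 99 an array) were left out, spots of a probe were averaged, and log2 signals were set relative to the 75th percentile over the probes of the array (324 to 437). A probe entered the test if both arrays of any group had it well above background, which left 33753 of 58162. These were fitted in limma 3.58.1 (R 4.3.3) with a mean for each of the 4 groups and Benjamini-Hochberg adjustment. Called means an adjusted p under 0.05 with a 2-fold difference or more. The number of arrays, 2 a group, limits the precision. RefSeq accessions gave 31104 probes a symbol. Plots used matplotlib 3.10.9 (Python 3.11.15).

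Members and gene lists were chosen with earlier results of these data known. All 10 members are named, with up to 3 called genes of each other list per direction by size, and the 3 best-correlated genes for CDH1, EPCAM, EMP3 and VIM. On simulated data for the drug comparison in OVSAHO over 33753 probes, 79.5% of 200 changed probes were recovered, with 3 false calls. All planted changes were larger than 2-fold, so this share does not cover smaller ones. Alternatives changed the filter, background correction, scaling, floor, samples fitted, fold threshold and probe summary, added a block for the replicate number, used the analysis of variance with Tukey's test that the methods name, or left out each array.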

Additional observations from a re-analysis of the deposited data

Results flagged for a closer look

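Several genes responded to the drugs differently in the lines, by the test of the drug difference in OVSAHO minus that in KURAMOCHI (log2, simvastatin minus L-778123, limma adjusted p under 0.05). Among the members the values were 0.71 for CDH1, 0.79 for VIM, 0.51 for TWIST1, 2.57 for EMP3 and -0.36 for SNAI1. Of these members only EMP3 passed under every alternative that kept all arrays. The study had listed EMP3 from contrasts that enter this test, so its value is not independent evidence. SNAI2 had -1.42, from OVSAHO signals not well above background.

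Among the other epithelial genes the difference passed the test and was at least 2-fold for DSC2 (1.88) and CDH3 (1.73) of the junctions. It was also called for S100A14 (2.78), MUC1 (1.25), FXYD3 (3.43) and EPN3 (-2.53) of the surface and trafficking genes, and FXYD3 was not well above background in KURAMOCHI. The regulators ELF3 (1.94) and TFAP2C (1.22) were called as well.

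Of the mesenchymal genes CD44 had 3.75, LOXL2 1.20 and NT5E -1.22, and LOX had -1.59 with KURAMOCHI signals not well above background. Of the regulators FOXC1 had 1.16, HMGA2 -1.29 and LEF1 -1.17. Of the filament genes PRPH had 2.05 and NES 2.03. NES was higher with simvastatin in OVSAHO (0.98) and lower in KURAMOCHI (-1.05). For CD44, the drug differences were 3.47 in OVSAHO and -0.29 in KURAMOCHI.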

How the results depend on the processing

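The differences between lines of CDH1, CDH2, EPCAM, VIM, ZEB1, SNAI1 and EMP3 kept their direction and passed under every alternative tried, and so did the drug differences of CDH1, VIM, ZEB1 and EMP3 in OVSAHO and of SNAI1 in KURAMOCHI, and the difference of responses of EMP3. Limits are the 2 arrays a group, the single slide, and ZEB2 and SNAI2 at background in OVSAHO.

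Counts of probes called between the drugs in OVSAHO, between the drugs in KURAMOCHI, for the difference of responses and between the lines were 3701, 1888, 2398 and 11368. They became 2187, 944, 1331 and 6872 with only probes well above background on all 8 arrays, 1557, 657, 1029 and 6438 with normexp background correction, 8021, 4534, 4898 and 17434 at 1.5-fold, and 16222, 10587, 7722 and 26217 with no fold threshold. The analysis of variance with Tukey's test gave 1112 in KURAMOCHI. Normexp moved the share of higher calls for the difference of responses from 54.3% to 62.3%. Leaving out an array gave 3480 to 3720 in OVSAHO and 1799 to 1898 in KURAMOCHI.

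Members called at 2-fold were 3, 0, 2 and 6, with SNAI2 and, between the lines, ZEB2 counted although at background in OVSAHO. In OVSAHO they became 6 with no fold threshold, and in KURAMOCHI 1 at 1.5-fold and 4 with no fold threshold. For the difference of responses they became 1 with the stricter filter, normexp or the floor, 4 at 1.5-fold and 6 with no fold threshold. Members past the adjusted p alone went in KURAMOCHI from 4 to 2 with no filter, 7 with normexp and 1 with Tukey's test, and over the arrays left out from 1 to 5. For the difference of responses they went from 6 to 3 with no filter and over the arrays left out from 3 to 5.

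Directions turned for values near 0 or at background. CDH1 in KURAMOCHI became 0.033 with normexp, 0.031 with quantile normalization, 0.032 with the authors' table and 0.00061 with the percentile over probes above background on all arrays, and ran from -0.14 to 0.13 over the arrays left out. TWIST1 in OVSAHO became -0.017 with normexp and ran from -0.10 to 0.13 over the arrays left out. SNAI2 in OVSAHO became 0.074 with normexp and 0.32 with the floor, and its difference of responses 0.033 with the floor. EPCAM's difference of responses ran from -0.018 to 0.092 over the arrays left out. The cause was not tested.

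The labels number the arrays of each group 1 and 2. Deviations of arrays with the same number correlated at only 0.00085 to 0.056 between groups. These correlations cannot show whether arrays with the same number shared a culture or their handling. With the replicate number as a block within each line, members past the adjusted p alone were 2 in KURAMOCHI and 2 for the difference of responses, where CDH1 and VIM (adjusted p = 0.0617 each), SNAI1 (0.0923) and TWIST1 (0.116) did not pass. Also lost were the drug differences of SNAI1 in OVSAHO (0.0517) and of VIM (0.111) and TWIST1 (0.0525) in KURAMOCHI.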
